A study of Mus musculus with 6 samples.

Results

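The RNA of 10 granule protease genes was followed in the mouse mast cell line MC/9 after exposure to rPTH. The genes were chosen by name as the proteases that mouse mast cells and related granulocytes store (Cpa3, Cma1, Mcpt1, Mcpt2, Mcpt4, Mcpt8, Tpsb2, Tpsab1, Gzmb and Ctsg), and all 10 were found among the 49568 genes of the count table. The study set 3 libraries of MC/9 cells that had received rPTH (10 nM, 24 h) against 3 control libraries of MC/9 cells labelled as given no treatment. The series' design text describes mast cells placed on a layer of 7F2 osteoblasts, a mouse line, dosed in co-culture and collected from it for sequencing. The labels do not say whether the control mast cells had shared a dish with osteoblasts, and they do not spell out rPTH, which was read here as a preparation of parathyroid hormone.

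Mast cell granules hold proteases at very high density, bound to heparin chains on the proteoglycan serglycin, and release them when the cell degranulates. Carboxypeptidase A3 (Cpa3) removes residues from the C-terminal end of proteins, chymases typically cut after aromatic residues, though single members can differ, and tryptases cut after lysine or arginine. Mouse mast cells differ in their protease set by tissue: Mcpt1 and Mcpt2 are chymases of mucosal mast cells, Mcpt4 is a chymase of connective tissue mast cells, Mcpt8 is known from basophils, Gzmb from cytotoxic lymphocytes and Ctsg from neutrophils.

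In GENCODE M21 on GRCm38, 7 of the 10 genes lie in 1 cluster on chromosome 14, from Cma1 (55941451 to 55944675) to Gzmb (56258838 to 56262260), a stretch of 321 kb. The tryptase genes Tpsab1 (25343245 to 25345562, minus strand) and Tpsb2 (25366305 to 25369098, plus strand) lie on chromosome 17, and Cpa3 lies on chromosome 3 from 20215620 to 20242181. All are protein-coding genes with short transcripts, with 998 to 2094 bases of exon, against a median of 4465 bases over tested protein-coding genes. Related members can be told apart by exact runs of 50 bases. No run of 50 bases of any Cpa3, Tpsb2, Tpsab1, Gzmb, Mcpt1, Mcpt2, Mcpt8 or Ctsg transcript occurred in a transcript of another gene, while 5.38% of such runs of Cma1 occurred in the pseudogene Gm48934 and 5.48% of those of Mcpt4 in Cma2 or Mcpt9. Only exact runs were searched, so how far reads with mismatches could be confused between related members was not tested. Shown are the longest exact coding runs, in 1 transcript per gene, shared by the tryptase pair (39 bases) and by the pair Mcpt1 and Mcpt2 (49 bases):
Tpsb2 and Tpsab1: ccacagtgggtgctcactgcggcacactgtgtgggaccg
Mcpt1 and Mcpt2: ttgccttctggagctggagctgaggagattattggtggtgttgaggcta

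RefSeq promoter windows on GRCm38.p6 (300 bases, running from upstream of the gene start to just inside the gene) were found for 7 members. They are shown for the readily detected genes Cpa3 (chr3:20242132-20242431, minus strand) and Cma1 (chr14:55944626-55944925, minus strand) and for Mcpt1 (chr14:56017714-56018013, plus strand) and Mcpt4 (chr14:56062261-56062560, minus strand), whose RNA was near the detection limit. Capitals mark the core recognised by GATA factors, searched on both strands as GATA with an A or a T before it and an A or a G after it:
Cpa3: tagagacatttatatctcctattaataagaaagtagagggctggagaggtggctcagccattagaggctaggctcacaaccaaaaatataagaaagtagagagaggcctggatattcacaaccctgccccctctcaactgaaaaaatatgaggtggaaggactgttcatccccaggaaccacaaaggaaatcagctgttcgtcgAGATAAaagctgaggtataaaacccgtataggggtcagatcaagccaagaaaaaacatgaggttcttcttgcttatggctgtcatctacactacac
Cma1: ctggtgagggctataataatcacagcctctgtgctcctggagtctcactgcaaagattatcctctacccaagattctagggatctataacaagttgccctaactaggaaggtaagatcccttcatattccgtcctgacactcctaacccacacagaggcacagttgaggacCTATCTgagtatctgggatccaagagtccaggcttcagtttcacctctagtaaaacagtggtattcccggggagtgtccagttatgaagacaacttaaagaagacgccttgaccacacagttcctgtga
Mcpt1: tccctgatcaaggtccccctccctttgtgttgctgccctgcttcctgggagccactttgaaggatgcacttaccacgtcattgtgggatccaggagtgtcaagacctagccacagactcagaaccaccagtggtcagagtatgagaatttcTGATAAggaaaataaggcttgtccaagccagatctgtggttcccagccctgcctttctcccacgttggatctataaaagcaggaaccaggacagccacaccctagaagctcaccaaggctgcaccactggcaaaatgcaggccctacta
Mcpt4: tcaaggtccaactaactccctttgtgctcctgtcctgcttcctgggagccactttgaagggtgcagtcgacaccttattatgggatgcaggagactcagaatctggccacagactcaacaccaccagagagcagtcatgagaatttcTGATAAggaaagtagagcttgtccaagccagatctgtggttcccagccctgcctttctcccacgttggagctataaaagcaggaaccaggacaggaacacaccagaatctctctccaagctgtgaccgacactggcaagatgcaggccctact
Each of these 4 windows held 1 GATA match, and those of Mcpt8, Gzmb and Ctsg held 0; a match occurred in 29.8% of all 32851 promoter windows. The match of Cpa3 began 46 bases before the gene start, that of Cma1 79 bases before it, and those of Mcpt1 and Mcpt4 began 99 and 103 bases before it. A TATAAA on the gene strand, present in 8.32% of all windows, was found in Cpa3, Mcpt1 and Mcpt4 but not in Cma1, Mcpt8, Gzmb or Ctsg. The window of abundant Cpa3 and those of Mcpt1 and Mcpt4 thus shared these 2 motifs. Each also held 1 RUNX match (TGTGGT on either strand, in 16.8% of all windows). They differed in E-boxes (CANNTG, in 72.3% of all windows), with 2 in Cpa3 and 0 in Mcpt1 and Mcpt4. Among the other windows Cma1 held 1 E-box, Gzmb 2, Mcpt8 3 and Ctsg, also near the detection limit, 4. Whether any of these motifs bears on RNA level was not tested.

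Total counts were 30623648 to 33577977 in the rPTH libraries and 22282095 to 24993606 in the controls. Levels are given as CPM, a library's counts scaled to its total and to an edgeR composition factor (TMM), which control 1 had at 0.81 and every other library at 1.03 to 1.06. In a principal component analysis, component 1 (55.9%) set control 1 apart and component 2 (30.9%) set control 3 apart. In control 1 protein-coding genes with 1 to 2 kb of exon, the size of most members, had a median shift of 0.71 (log2) from their mean over the libraries, against -0.20 to -0.08 in the other 5. Of 17 mast cell identity genes 16 passed the low-count filter and Enpp3 did not, and Kit had 278 to 605 CPM. Lymphoid markers (8 genes) summed to 0.463 to 0.588 CPM in rPTH libraries and 0.541 to 0.994 CPM in controls, and neutrophil markers (9 genes) to 2.77 to 3.45 CPM in rPTH libraries and 2.32 to 8.30 CPM in controls, most of it from Ly6g (1.596 to 2.09 CPM in rPTH libraries and 1.86 to 7.08 CPM in controls), while the neutrophil protease Elane had 0 or 1 count. Osteoblast and stromal markers (22 genes) summed to 2292, 1438 and 1596 CPM in rPTH 1, 2 and 3, against 1218, 1136 and 1087 CPM in control 1, 2 and 3. This marker sum was thus higher in every rPTH library than in every control. Whether that was more RNA of other cells or a higher level of these genes was not tested. In such bulk RNA fewer mast cells and less RNA per mast cell cannot be told apart. The labels do not state that replicates are separate cultures; p-values therefore measure the spread between these libraries, which may be technical.

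Cpa3 and the tryptase Tpsb2 dominated the protease RNA of MC/9 cells. The 10 genes together took 0.213%, 0.290% and 0.266% of all counts in rPTH 1, 2 and 3, against 0.318%, 0.260% and 0.270% in control 1, 2 and 3. Of the members' counts Cpa3 made up 75.6% to 77.2% in rPTH libraries and 67.3% to 74.0% in controls, and Tpsb2 made up 20.8% to 22.7% in rPTH libraries and 24.2% to 30.5% in controls. The share of Cpa3 was thus above every control in all 3 rPTH libraries, and that of Tpsb2 below every control. These 2 genes made up nearly all of the members' counts, so the 2 shares mirror each other and are not separate results. In CPM the groups overlapped for Cpa3. The ratio of Tpsb2 to Cpa3 was below every control in all rPTH libraries, as was that of 4.92% of the other 16695 tested genes. By mean CPM per kb of exon over all 6 libraries, Cpa3 ranked 14 and Tpsb2 ranked 83 among 21390 protein-coding genes.

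On the scale of CPM per kb of exon, the level of Cpa3 was 1231 ± 166 with rPTH and 1401 ± 296 in controls (SD, n = 3 each), and that of Tpsb2 was 337 ± 62.5 with rPTH and 518 ± 202 in controls. Then came Cma1 (12.1 ± 0.508 with rPTH and 18.1 ± 9.25 in controls), Gzmb (10.8 ± 2.68 with rPTH and 11.8 ± 3.08 in controls), Tpsab1 (4.73 ± 0.949 with rPTH and 7.74 ± 2.38 in controls) and Mcpt8 (3.13 ± 0.625 with rPTH and 3.75 ± 2.33 in controls). Mcpt2 followed at 0.264 ± 0.110 with rPTH and 0.960 ± 0.142 in controls. Cpa3 was above Tpsb2, and Tpsb2 above Cma1, in all 6 libraries with no overlap of their ranges, and so was Mcpt8 above Mcpt2. Cma1 and Gzmb were not separated, with Cma1 higher in 5 of 6 libraries and ranges of 11.6 to 28.8 and 7.72 to 15.3. The ranges of Gzmb and Tpsab1, and of Tpsab1 and Mcpt8, also overlapped, though the first of each pair was higher in all 6 libraries.

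**Figure D1:**
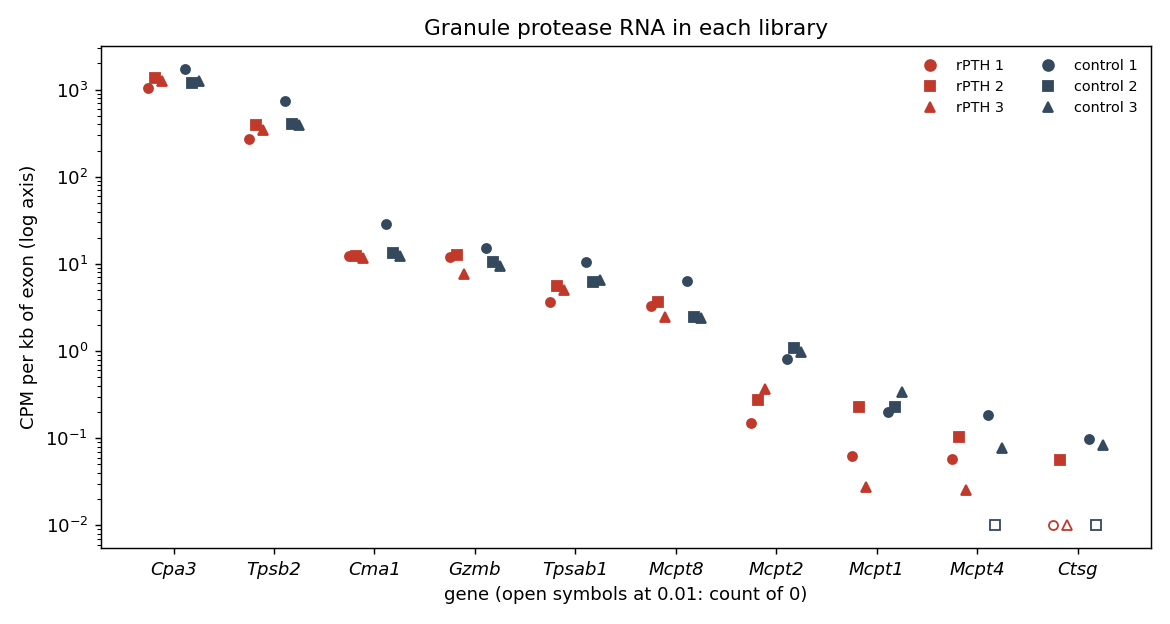
Level of each protease gene (CPM per kb of exon, log axis) in the 3 rPTH libraries (red, left) and the 3 controls (dark, right), with open symbols for counts of 0. Cpa3 and Tpsb2 lie far above the other genes, with Cma1 next at 12.1 with rPTH and 18.1 in controls, and Mcpt1, Mcpt4 and Ctsg lie near the detection limit.

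The comparison between the groups asked whether the proteases differed with rPTH. All 7 members that passed the low-count filter had a log2 fold change below 0, against 58.5% of all 16696 tested genes, with a median of -0.57 against -0.09 over all tested genes. None passed the test: edgeR's quasi-likelihood test with Benjamini-Hochberg adjustment called 0 of the 7 members and 0% of all tested genes at an adjusted p under 0.05, with adjusted p of 0.619 to 0.842 for the members. At an unadjusted p under 0.05 there were 2 members, Mcpt2 and Tpsab1, both lower, while 5.89% of all tested genes were lower at that level (7.87% in either direction). DESeq2 and limma-voom called 0 members as well, and over all genes DESeq2 called 8 and limma-voom 0. For Tpsb2, Tpsab1 and Mcpt2 every rPTH library lay below every control, against 8.45% of all tested genes; 0 members had every rPTH library above every control, against 8.35% of all tested genes. The median of the members was -0.08 without control 1, when Gzmb and Mcpt8 were above 0, and -0.22 with each library's trend on exon length over all tested genes removed. That trend was 0.30 to 0.35 (log2) at the tested members in control 1 and 0.0099 to 0.30 in control 3, unlike the shift of protein-coding genes given above; with a trend over protein-coding genes removed in its place, an alternative added after the data were seen, the median was -0.15. The 3 other members, Mcpt1, Mcpt4 and Ctsg, were too low to test.

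**Figure D2:**
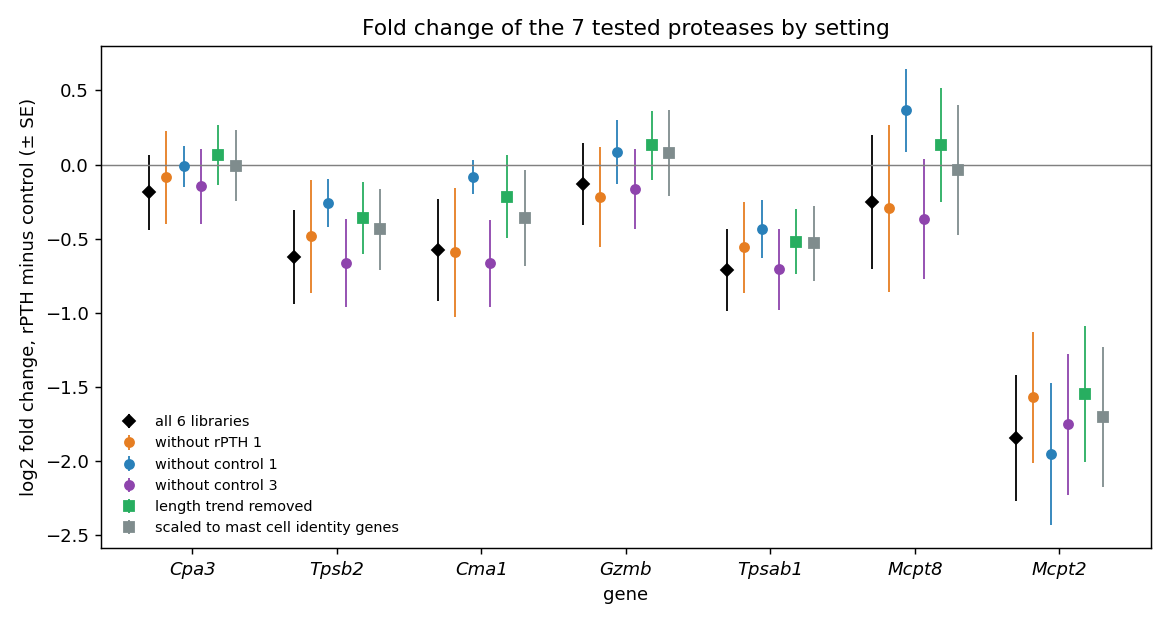
Log2 fold change (rPTH minus control, with its standard error) of the 7 tested proteases in the fit of all 6 libraries and under 5 other settings. Mcpt2 stays between -1.95 and -1.55 in all of those shown, Tpsab1 and Tpsb2 stay below 0, and Cpa3, Gzmb and Mcpt8 lie on both sides of 0.

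Cpa3 had 1597, 2094 and 1909.7 CPM in rPTH 1, 2 and 3, against 2639, 1813 and 1923 CPM in control 1, 2 and 3. The groups overlapped, and control 1 was the highest library. The log2 fold change was -0.19 ± 0.25 (SE; 95% interval -0.78 to 0.41; edgeR adjusted p = 0.763). It was 0.07 with the length trend over all tested genes removed, 0.08 with that over protein-coding genes removed, and -0.01 without control 1. Per 100 counts of 17 mast cell identity genes that hold no protease, Cpa3 had 20.8, 21.6 and 20.4 counts in rPTH 1, 2 and 3, against 24.5, 18.5 and 20.1 counts in control 1, 2 and 3, with means of 20.9 with rPTH and 21.0 in controls.

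Tpsb2, the main tryptase gene of these cells, had 430.1, 628 and 553 CPM in rPTH 1, 2 and 3, against 1197, 648 and 629 CPM in control 1, 2 and 3. All rPTH libraries lay below all controls, though rPTH 2 was just below control 3 and control 1 was far above the rest. The log2 fold change was -0.62 ± 0.32 (SE; 95% interval -1.37 to 0.13; edgeR adjusted p = 0.628). Without control 1 it was -0.26 ± 0.16, and with the length trend over all tested genes removed it was -0.36 ± 0.24.

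Tpsab1, the second tryptase gene of this cluster, had 7.70, 11.6 and 10.5 CPM in rPTH 1, 2 and 3, against 22.0, 13.1 and 13.6 CPM in control 1, 2 and 3. Again every rPTH library lay below every control. The log2 fold change was -0.71 ± 0.28 (SE; 95% interval -1.36 to -0.05; edgeR unadjusted p = 0.0381, adjusted p = 0.619), and without control 1 it was -0.44 ± 0.20. The proportion of Tpsb2 to Tpsab1 ran from 46.4 to 55.8 over the libraries, and the groups overlapped. It was 55.8, 54.3 and 52.8 counts of Tpsb2 per count of Tpsab1 in rPTH 1, 2 and 3, against 54.5, 49.4 and 46.4 in control 1, 2 and 3.

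The tryptases were also low relative to Cpa3 within single libraries, a ratio into which no scaling between libraries enters and which was chosen after the values were seen. There were 26.9, 30.0 and 28.9 counts of Tpsb2 per 100 counts of Cpa3 in rPTH 1, 2 and 3, against 45.4, 35.7 and 32.7 in control 1, 2 and 3. For Tpsab1 the ratio was 0.482, 0.552 and 0.548 per 100 counts of Cpa3 in rPTH 1, 2 and 3, against 0.832, 0.723 and 0.705 in control 1, 2 and 3. Both ratios were below every control in all 3 rPTH libraries, as was the ratio to Cpa3 of 4.92% of the other 16695 tested genes (6.3% had it above every control), and their means were 0.754 and 0.700 times those of the controls. No test is given for these ratios; an exact two-sided permutation test of 3 libraries against 3 cannot go below 0.1.

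**Figure D3:**
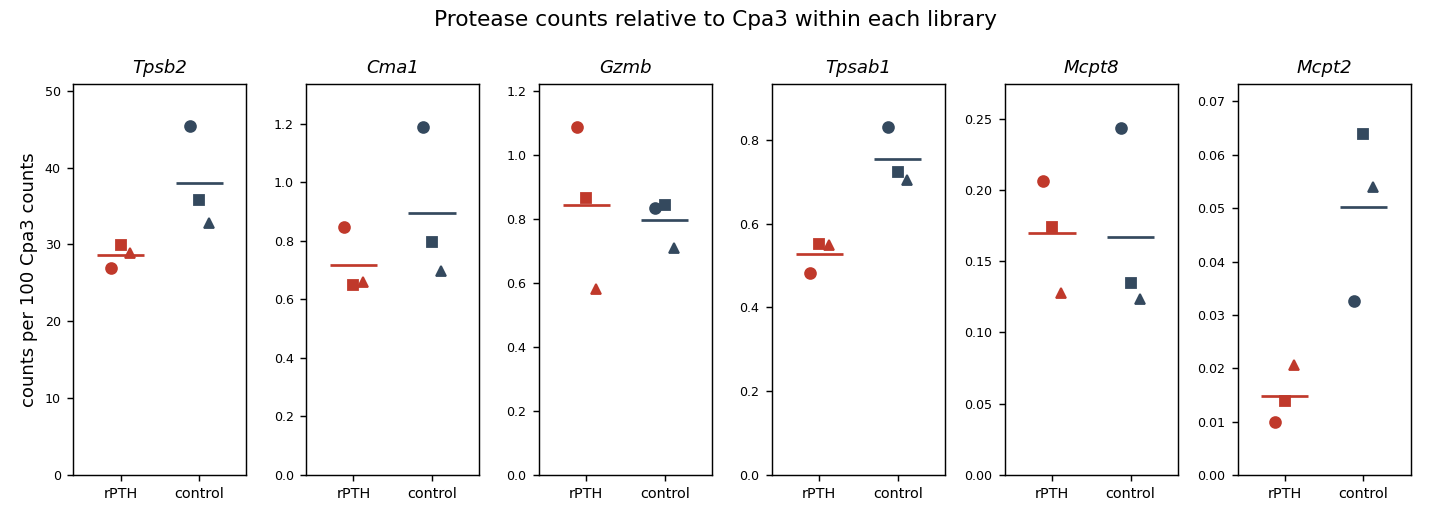
Counts of 6 proteases per 100 counts of Cpa3 in each rPTH library (left) and control (right), with circles, squares and triangles for libraries 1, 2 and 3, lines at the group means and axes from 0. Tpsb2, Tpsab1 and Mcpt2 have all rPTH libraries below all controls (4.92% of all tested genes other than Cpa3 do), while Cma1, Gzmb and Mcpt8 overlap.

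Tpsg1, which encodes a membrane-anchored tryptase and is no member, starts 174 bases after the end of Tpsb2 on the same strand. It had 75.4, 94.8 and 94.3 CPM in rPTH 1, 2 and 3, against 183, 114 and 111 CPM in control 1, 2 and 3, and every rPTH library was below every control. Per kb of exon its level was 63.5 ± 7.99 CPM with rPTH and 97.9 ± 29.3 CPM in controls (SD, n = 3 each), between those of Tpsb2 and Cma1. Its log2 fold change was -0.62 ± 0.24 (SE; edgeR unadjusted p = 0.0362, adjusted p = 0.619), and without control 1 it was -0.36. Tpsg1 followed Tpsb2 from library to library, with 17.5, 15.1 and 17.1 counts per 100 counts of Tpsb2 in rPTH 1, 2 and 3, against 15.3, 17.5 and 17.7 in control 1, 2 and 3. Whether reads running on from Tpsb2 were counted at Tpsg1 was not tested. Tpsg1 overlaps Cacna1h on the other strand, which had 8.99 ± 1.36 CPM with rPTH and 8.51 ± 4.71 CPM in controls, and whether the counting used strand is not known from the labels.

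Among the chymases and granzymes of chromosome 14, Cma1, a chymase of connective tissue mast cells, had the highest mean per kb, though it was not separated from Gzmb. It had 13.5, 13.6 and 12.6 CPM in rPTH 1, 2 and 3, against 31.4, 14.5 and 13.4 CPM in control 1, 2 and 3. The log2 fold change of -0.57 ± 0.34 (SE; 95% interval -1.39 to 0.24; edgeR adjusted p = 0.628) rested on control 1, without which it was -0.08 ± 0.12. Gzmb, the serine protease granzyme B, had 17.3, 18.1 and 11.1 CPM in rPTH 1, 2 and 3, against 22.0, 15.3 and 13.65 CPM in control 1, 2 and 3. The groups overlapped (log2 fold change -0.13 ± 0.27, SE; 95% interval -0.78 to 0.52; edgeR adjusted p = 0.842).

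Mcpt8, the serine protease used as a basophil marker, had 3.296, 3.65 and 2.44 CPM in rPTH 1, 2 and 3, against 6.43, 2.44 and 2.38 CPM in control 1, 2 and 3. Its log2 fold change was -0.25 ± 0.45 (SE; 95% interval -1.32 to 0.81; edgeR adjusted p = 0.813), and without control 1 it was 0.36 ± 0.28, so its direction was set by that library. Of 4 other genes listed as basophil markers, the protease gene Prss34 had 0 to 3 counts and Itga2 had 0 to 7 counts per library. Cd200r3, which is also listed among the mast cell identity genes, had 99.0 to 119 CPM over all 6 libraries, and Il4 had 5.26 to 16.3 CPM.

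Mcpt2, a mucosal mast cell chymase, had the largest difference among the tested members. It had 5, 10 and 14 counts in rPTH 1, 2 and 3, against 17, 30 and 24 counts in the shallower control 1, 2 and 3. In CPM this was 0.158, 0.290 and 0.392 in rPTH 1, 2 and 3, against 0.860, 1.16 and 1.04 in control 1, 2 and 3. No rPTH library reached the lowest control, and the pooled level was 0.285 CPM with rPTH (exact Poisson 95% interval 0.191 to 0.409) and 1.03 CPM in controls (0.806 to 1.30). Such intervals cover counting error only, since PCR copies of 1 molecule could not be told from separate molecules. The log2 fold change was -1.84 ± 0.42 (SE; 95% interval -2.84 to -0.84; edgeR unadjusted p = 0.00326, rank 10 of 16696), and the adjusted p of 0.619 did not pass. The authors' deposited table gave Mcpt2 a log2 fold change of -1.21 with an adjusted p of 0.138. DESeq2 as run here on the same counts gave -1.78 ± 0.56 (SE) with an adjusted p of 0.141. Why the deposited fold change was closer to 0 was not tested. Mcpt2 was the one tested member whose level was lowest among the controls in control 1.

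Mcpt1, Mcpt4 and Ctsg were close to the detection limit, which 3 counts put at 0.0840 to 0.152 CPM per library. Mcpt1 had 2, 8 and 1 counts in rPTH 1, 2 and 3, against 4, 6 and 8 counts in control 1, 2 and 3. Mcpt4 had 2, 4 and 1 counts in rPTH 1, 2 and 3, against 4, 0 and 2 counts in control 1, 2 and 3. Ctsg had 0, 2 and 0 counts in rPTH 1, 2 and 3, against 2, 0 and 2 counts in control 1, 2 and 3. The groups overlapped for each of them, and all were too low to test. The rPTH libraries were deeper, so pooled CPM with exact Poisson intervals is given as for Mcpt2. Mcpt1 had 0.108 CPM with rPTH (0.0539 to 0.193) and 0.262 CPM in controls (0.155 to 0.414). Mcpt4 had 0.0688 CPM with rPTH (0.0276 to 0.142) and 0.0872 CPM in controls (0.0320 to 0.190). Ctsg had 0.0196 CPM with rPTH (0.00238 to 0.0710) and 0.0582 CPM in controls (0.0158 to 0.149). Each was lower with rPTH, with overlapping intervals that cover counting error only.

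Several measures moved with the proteases by library. The 10 genes summed to 2069, 2769.6 and 2499 CPM in rPTH 1, 2 and 3, against 3919, 2508 and 2597 CPM in control 1, 2 and 3, so control 1 was the highest and rPTH 1 the lowest. The mean was 2446 ± 353 CPM with rPTH and 3008 ± 790 CPM in controls (SD, n = 3 each), and without control 1 the difference was -130 CPM in place of -562 CPM. Control 1 also had the most ribosomal protein RNA, at 121121 CPM against 43201 to 50738 CPM in the other 5 libraries. The sum of the 17 mast cell identity genes was lowest in rPTH 1 and highest in control 1, with 7683 to 9682 CPM in rPTH libraries and 9576 to 10785 CPM in controls, and that of the stromal markers was highest in rPTH 1. The single identity genes were split: 7 were highest in control 1, while Kit, Mitf, Il1rl1, Slc18a2 and Rab27b were lowest there, and 10 were lowest in rPTH 1. The part of these differences in the protease values was tested only as far as scaling to the mast cell identity genes, which left log2 fold changes of -0.01 for Cpa3, -0.43 for Tpsb2, -0.53 for Tpsab1 and -1.70 for Mcpt2.

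**Figure D4:**
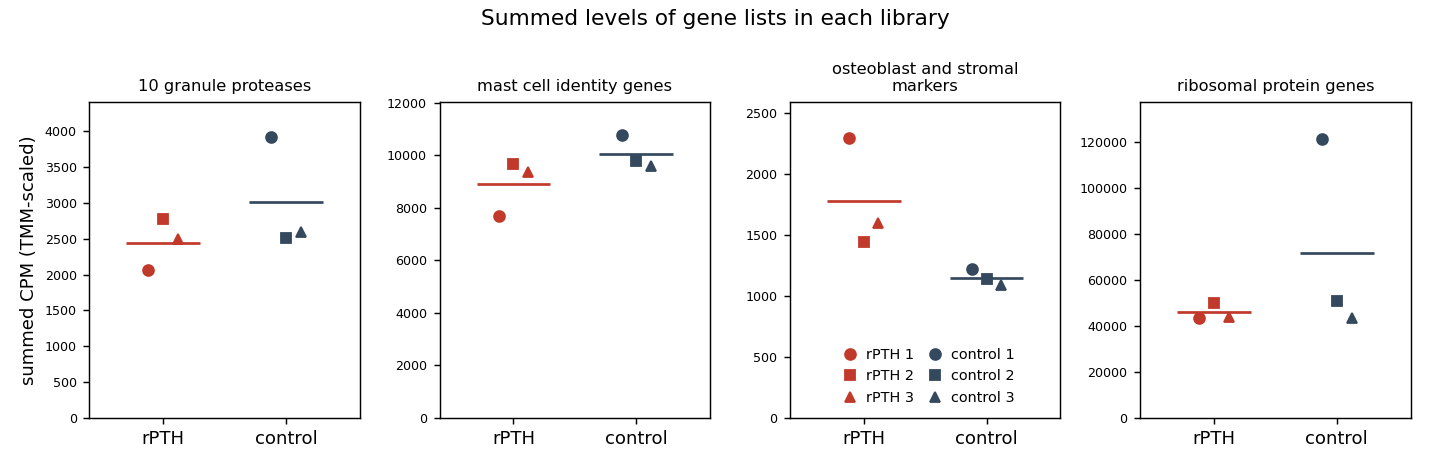
Summed TMM-scaled CPM of the 10 proteases, of mast cell identity genes, of osteoblast and stromal markers and of ribosomal protein genes in each rPTH library (left) and control (right), with group means as lines and axes from 0. The sums of the proteases and of the mast cell identity genes are highest in control 1 (3919 and 10785 CPM) and lowest in rPTH 1 (2069 and 7683 CPM), while the stromal markers are highest in rPTH 1 (2292 CPM).

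The machinery that stores, trims and restrains the proteases showed no called gene. Of 15 tested genes for serglycin and heparin chains, 0 passed in edgeR (0 at an unadjusted p under 0.05), and the median log2 fold change was 0.04. Srgn, the serglycin core protein, had 374 ± 66.6 CPM with rPTH and 441 ± 127 CPM in controls (SD, n = 3 each). The exostosin genes Extl3 (log2 fold change 0.41) and Ext1 (0.43), which act in building the sugar chains, had all rPTH libraries above all controls without passing, as did 4 of the 15 in all (with Xylt1 at 0.56 and Glce at 0.43), against 8.35% of all tested genes. Of 11 tested lysosomal cathepsins 0 passed (0 unadjusted; median 0.03). Ctsc, the peptidase that activates granule serine proteases by trimming their precursors, had 129 ± 18.6 CPM with rPTH and 135 ± 2.63 CPM in controls. Ctsd, an aspartic cathepsin, had a log2 fold change of -0.56 and Ctsa -0.29.

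Of 12 tested inhibitors 0 passed (0 unadjusted), 9 were below 0 and the median was -0.30. Serpinb1a, an inhibitor of neutrophil-type and chymotrypsin-like serine proteases, had 1050.3 ± 192 CPM with rPTH and 1296 ± 485 CPM in controls, while the cathepsin inhibitor Cst7 had a log2 fold change of -0.53 and the carboxypeptidase inhibitor Lxn -0.37. Of 6 tested carboxypeptidases related to Cpa3, 0 passed (0 unadjusted; median 0.27), with Cpd at 0.44, Cpn1 at -0.51 and Cpq at 0.33. The other granzymes were low: Gzme had 3.25 ± 0.952 CPM with rPTH and 4.42 ± 3.798 CPM in controls, Gzmd had a log2 fold change of -0.53, and Gzmm had -0.73 with every rPTH library below every control. In the chromosome 17 cluster Tpsg1 was the only one of 8 further genes high enough to test. Among receptors cut by proteases, the thrombin receptor F2r had 293 ± 26.2 CPM with rPTH and 279 ± 39.7 CPM in controls, F2rl2 had a log2 fold change of -0.05, and F2rl1, a receptor cut by tryptase, had 0 to 2 counts per library. Of the 16 tested mast cell identity genes 0 passed (0 unadjusted), with a median of -0.14. For 3 of them (Gata2, Itgb7 and Tph1) every rPTH library lay below every control, against 8.45% of all tested genes, and for 0 every rPTH library lay above. Tph1, an enzyme of serotonin synthesis, had a log2 fold change of -0.27, the leukotriene synthase Ltc4s -0.92 and the integrin chain Itgb7 -0.40. Of the 18 tested osteoblast and stromal markers 0 passed and 10 were higher at an unadjusted p under 0.05, with a median of 0.56. Over all tested genes 7.87% were under that level in either direction and 5.89% were lower. For 12 of the 18 every rPTH library lay above every control, against 8.35% of all tested genes. The matrix protein Thbs2 had a log2 fold change of 0.88 and the collagen crosslinking enzyme Lox 0.97.

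**Figure D5:**
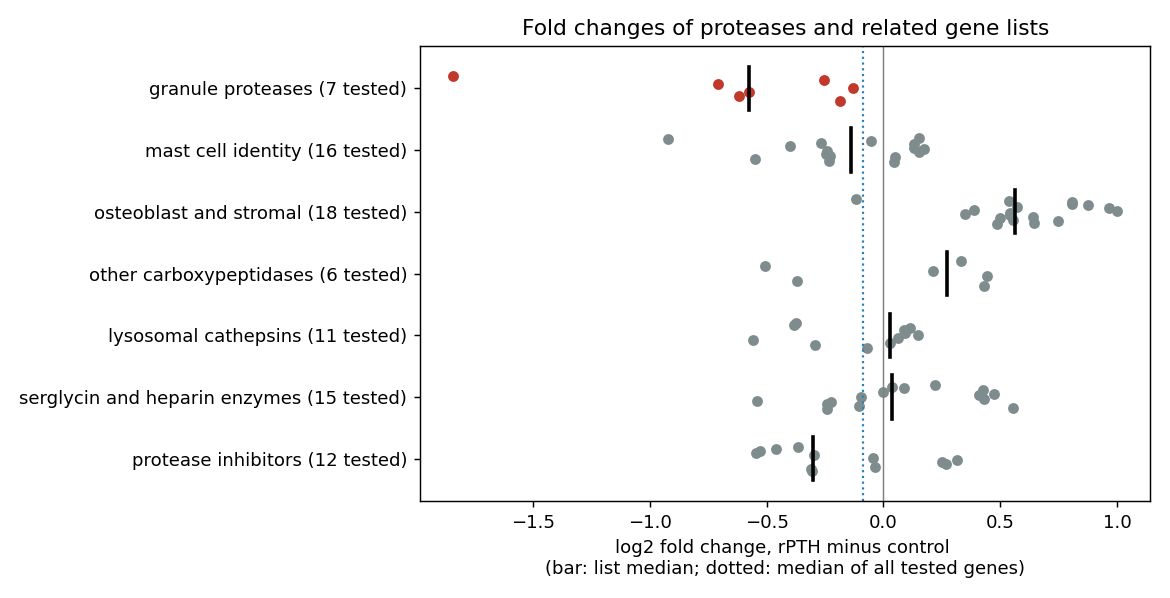
Log2 fold changes (rPTH minus control) of the 7 tested proteases and of the tested genes of 6 related lists, with list medians as bars and the median of all tested genes (-0.09) as a dotted line. The proteases all lie below 0 with a median of -0.57, the inhibitors have a median of -0.30, and the osteoblast and stromal markers have a median of 0.56.

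The members' library patterns were compared as a description, since 6 libraries share depth and composition. Tpsb2 and Tpsab1 had the highest Pearson r among the member pairs (0.98 over 6 libraries, log2 CPM), followed by Cpa3 and Tpsb2 (0.95), while Mcpt2 had an r of -0.074 with Mcpt8 and of -0.021 with Gzmb. Outside the list, the genes most like Cpa3 were Vipas39 (r = 0.999), Ndn (0.996) and Srgn (0.995), and 184 genes had an r above 0.95. The genes most like the mean of the tested members were Nprl2, RP23-382B3.1 and Isoc2a (r of 0.997 to 0.998), with 1169 genes above 0.95, so such likeness was common in these libraries.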

How the data were processed

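RNA of MC/9 cells was sequenced in 3 rPTH and 3 control libraries. The authors deposited whole-number counts per gene with no normalization, which were used for every result. A second deposited table holds a signal, the same counts over a size factor for each library; it and the deposited regularised log2 values entered no result. The authors' deposited comparison table holds log2 fold changes, a score (the Wald statistic) and p-values, and is quoted only where named. The submitters' processing notes name STAR 2.5.2b, Trimmomatic 0.36, featureCounts of Subread 1.5.0p3, R 3.3.0 with DESeq2 1.12.4, and the builds GRCm38.p5 and mm9, without saying what each was used for; annotation and strand setting are not given in the sources used here.

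Genes were tested with edgeR 4.0.16 (robust quasi-likelihood, TMM, filterByExpr with a minimum count of 10, Benjamini-Hochberg over 16696 genes, threshold 0.05) in R 4.3.3; limma 3.58.1 and DESeq2 1.42.0 (independent filtering at 0.05) were alternatives. Standard errors are the fold change over the root of F. The fit was tested on simulated data in which every gene had the same spread and only well-expressed genes had large planted changes. That run does not show how the fit performs on small changes or low counts. Exon lengths are unions over GENCODE M21 transcripts, matched by symbol for 97.0% of tested genes, and may differ from the annotation used for counting. Library pairs were not duplicates (chi-square per degree of freedom 12.9 to 278). Named were all members and, in each related list, the 2 tested genes of smallest p and the most abundant. Ctsc, Srgn, Prss34 and F2rl1 were added for their role, and Itga2 was added to complete the basophil genes. Members and lists were chosen with earlier results of these data known.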

Additional observations from a re-analysis of the deposited data

How the results depend on the processing

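Over 16 alternatives (17 for Mcpt2 and Tpsb2) the log2 fold changes of Mcpt2 (-2.16 to -1.55), Tpsab1 (-0.85 to -0.40), Tpsb2 (-0.77 to -0.26) and Cma1 (-0.76 to -0.08) kept their sign, and 0 members passed under any of them. The fold change of Cpa3 was above 0 with control replicate 2 as the only control (0.045) and with the length trend over all tested genes (0.066) or over protein-coding genes (0.079) removed. That of Gzmb was above 0 without the low-count filter (0.013), without rPTH 3 (0.062), without control 1 (0.085), with control 2 as the only control (0.014), without the length trend over all (0.13) or protein-coding genes (0.16) and scaled to mast cell identity genes (0.077). That of Mcpt8 was above 0 without control 1 (0.36), with control 2 as the only control (0.36) and without the length trend over all (0.13) or protein-coding genes (0.20); leaving out single libraries gave -0.50 to 0.36 for Mcpt8 and -0.26 to 0.085 for Gzmb. The causes were not tested. With control 2 alone that library is assumed to vary like the rPTH group.

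The number of members at an unadjusted p under 0.05 was 2, and 1 without the low-count filter, with control 2 as the only control, scaled to mast cell identity genes and with the replicate block; leaving out single libraries gave 1 to 2. Over all genes, 8 were called by DESeq2 and 2 with control 2 as the only control, against 0. The difference in summed level ran from -820 to -130 CPM without single libraries, and was -80.0 and -45.2 CPM without the length trend over all and over protein-coding genes, -60.1 CPM with control 2 as the only control and -217 CPM scaled to mast cell identity genes, against -562 CPM. The protein-coding length trend was added after the data were seen. With the replicate block 0 genes were called. Same-numbered libraries deviated from their group means with r of -0.13, -0.34 and 0.13. These values cannot show whether the numbers pair the samples. Deviations within a group sum to 0, and the controls that stood apart weigh on them. The labels do not say whether samples were paired. Members with all rPTH libraries below all controls numbered 2 to 4. Such separation is easier to reach with fewer libraries, so settings that leave libraries out cannot be compared with the rest. The share over all tested genes (8.45%) was taken only from the main fit of all 6 libraries. The median of all tested genes moved from -0.09 to 0.10 under mast cell scaling. Depth limits Mcpt1, Mcpt4 and Ctsg, at 0 to 8 counts.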
